A study of Saccharomyces cerevisiae with 24 samples.

Results

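The 10 genes described here encode the ubiquitin quality-control and Cdc48 machinery of *Saccharomyces cerevisiae*. The list names its members by function and uses no threshold on a value, though it was drawn up with earlier results of these data known. The genes make up 10 of the 6033 nuclear open reading frames (ORFs) in the tables. UBI4 encodes polyubiquitin. CDC48, UFD1 and NPL4 encode the Cdc48 segregase complex. SAN1, UBR1, RSP5 and LTN1 encode ubiquitin ligases of the nucleus and cytosol, and HRD1 and SSM4 encode the ligases of the endoplasmic reticulum (ER) membrane.

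Ribosome-protected footprints (FP) and total mRNA were sequenced from 12 cultures of haploid S288c-background yeast, giving 24 libraries. All cultures were grown in YPD and received cycloheximide, which holds ribosomes on the mRNA, shortly before harvest. The aneuploid strains carry an extra copy of whole chromosomes, and D1/2/8, for example, is disomic for chromosomes I, II and VIII. The strains were D2 (NVY1) and D1/2 (NVY2), sequenced in run 1 with 1 culture each, and D1/2/8 (NVY3, 1 culture), D1/2/8/11 (KLY193, 2 cultures), D13 (KLY196, 1 culture), D13 (KLY195, 2 cultures) and D1/8 (KLY194, 2 cultures), sequenced in run 2. The euploid wild type (WT, RLY2626) was sequenced once in each run. WT is MATa with ura3, his3, trp1 and leu2 mutations, and the D13 strains are MATalpha. NVY3 and KLY196 carry a mutation in CAK1, which encodes a kinase that activates the cell cycle kinase Cdc28, and KLY196 also carries one in SEC24, which encodes a subunit of the vesicle coat that leaves the ER. By the study's strain list, a TRP-marked cassette restores CAK1 in KLY193, KLY194 and KLY195, and a LEU-marked cassette restores SEC24 in KLY195. Each strain is a single isolate, so a karyotype and the other features of its isolate cannot be told apart.

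Ubiquitin is a small protein that is joined to other proteins by a chain of E1, E2 and E3 enzymes, and the E3, the ligase, chooses the substrate. Quality-control ligases mark misfolded, mislocalized or incomplete proteins for the proteasome. Substrates that sit in a membrane or a complex are first pulled out by Cdc48, an ATPase that recognizes ubiquitin chains through its cofactor Ufd1-Npl4. In ER-associated degradation (ERAD), misfolded proteins of the ER are ubiquitinated by Hrd1 or Doa10 (the product of SSM4) and moved to the cytosol.

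HRD1 and SSM4 had the lowest FP ratios to WT of the 10 genes in D1/2/8/11, D1/2/8 and both D13 strains, at 0.186 to 0.373 of the WT level, while their mRNA stood at 0.507 to 0.873 of WT. In D2, D1/2 and D1/8 neither gene was lower than WT by more than 1.5-fold in either fraction. RSP5 was lower in the same 4 strains, in mRNA and FP alike. UBI4 FP was 2.73 to 3.28 times the WT level in the D13 strains. NPL4 FP was 1.93 to 2.09 times the WT level in the strains disomic for its own chromosome, II. CDC48, SAN1 and UBR1 FP lay within 1.5-fold of WT in every strain, apart from SAN1 in D1/2/8/11, at 1.51 times WT.

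Reads were recovered from the steps in the low values. They were summed over nuclear ORFs with an uninterrupted coding sequence, so the sums are below the full library depth. In FP the sums were 1660245 to 5074900 reads in run 1 and 8477403 to 24932151 reads in run 2. In mRNA they were 1532245 to 3477213 reads in run 1 and 22374847 to 39631570 reads in run 2. All 10 genes were above 0 in every library, the lowest being HRD1 with 40 FP reads in D1/2/8/11 replicate 1. The selection markers were read as a check of the labels. TRP1 mRNA stood at 301 to 375 RPKM in the D1/2/8/11 and D13 (KLY195) cultures, but at 0 RPKM in both D1/8 cultures, although the strain list gives KLY194 the TRP-marked cassette. Whether D1/8, the strain of comparison in all tests below, carries the restored CAK1 is therefore uncertain. Among the FP libraries, that labelled D13 (KLY195) replicate 1 held TRP1 at 0.759 RPKM and LEU2 at 66.5 RPKM, and replicate 2 held them at 104.6 and 321 RPKM. Tests and list counts for D13 (KLY195) FP are therefore given with and without that library. Levels are in RPKM (reads per ORF, scaled by ORF length and by mapped reads). By the study's methods, the RPKM of aneuploid strains were then divided by their median ratio to the euploid over nonduplicated chromosomes. The deposited values carry that scaling and are not shares of a library. A change in the total amount of mRNA per cell was not measured. Ratios to WT are log2 values that use the WT library from the matching run and are shifted to a median of 0 over genes outside the duplicated chromosomes, and ribosome density is the FP ratio minus the mRNA ratio. With 1 WT library per run and fraction, ratios to WT have no test. The pooled SD between replicate cultures stood between 0.07 and 0.25 for the FP ratios of the 10 genes and between 0.04 and 0.08 for the mRNA ratios.

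UBI4 (YLL039C, chrXII:64062-65207, minus strand, sacCer3) encodes ubiquitin units fused head to tail, which are cut apart after translation and are the stress-inducible source of ubiquitin. The reading frame held 5 repeats of 228 bases that differ in DNA, with 80.3% to 90.4% identical bases between repeats, but encode the same protein. The same stretch of the 5 repeats, bases 133 to 162 of each, is shown because it bears on how reads can be placed. It is written on the gene strand, with capitals at the 4 positions that differ between repeats.
UBI4 repeat 1, chrXII:65046-65075: tttgcCggtaagcaGctAgaagaCggtaga
UBI4 repeat 2, chrXII:64818-64847: tttgcCggtaagcaGctAgaagaTggtaga
UBI4 repeat 3, chrXII:64590-64619: tttgcTggtaagcaActGgaagaCggtaga
UBI4 repeat 4, chrXII:64362-64391: tttgcTggtaagcaActAgaagaTggtaga
UBI4 repeat 5, chrXII:64134-64163: tttgcCggtaagcaActAgaagaTggtaga
Of all 28-base windows in the UBI4 reading frame, 27.4% (307 of 1119) occurred more than once within UBI4 and 4 also occurred in other genes, against 0 windows in the other 9 genes. How reads with several matches were counted is not given in the sources used here, so the UBI4 level is less certain than the others.

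UBI4 FP stood apart in the D13 strains. It was 1129 RPKM in D13 and 974.6 and 904 RPKM in D13 (KLY195), against 344 RPKM in the run 2 WT. In the other run 2 strains it was 403 RPKM in D1/2/8, 501 and 479.7 RPKM in D1/2/8/11, and 397 and 369 RPKM in D1/8. The 3 D13 libraries lay above all other FP libraries, with no overlap. Of all genes, 97.54% in D13 and 97.27% in D13 (KLY195) had a lower FP ratio to WT than UBI4. How many of all genes separate strains without overlap was not counted, here or for the genes below. In run 1, D2 had 178 RPKM and D1/2 had 194.8 RPKM, against 252 RPKM in WT, so UBI4 FP was lower than WT in both.

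UBI4 mRNA moved less. It was 619.6 RPKM in D13 and 472 and 453 RPKM in D13 (KLY195), against 382 RPKM in WT. In D1/2/8/11 it was 319 and 293 RPKM, below WT, although FP in the same cultures was above WT. The ribosome density ratio to WT was accordingly positive in all 5 run 2 strains, with D1/2/8 at 0.46, D1/2/8/11 at 0.83 ± 0.04 (SD, n = 2), D13 at 1.01, D13 (KLY195) at 1.17 ± 0.04 (SD, n = 2) and D1/8 at 0.25. The run 1 strains were at -0.17 (D2) and -0.01 (D1/2).

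CDC48 (YDL126C, chrIV:236157-238664, minus strand), the ATPase itself, was the most abundant of the 10 genes, apart from the 3 D13 libraries in FP and the D13 library in mRNA, in which UBI4 was higher. FP was 798 RPKM in D1/2/8, 802 and 834 RPKM in D1/2/8/11, 760.0 RPKM in D13, 708 and 890.0 RPKM in D13 (KLY195), and 782 and 750.1 RPKM in D1/8, against 621 RPKM in the run 2 WT. In run 1 it was 798 RPKM in D2 and 677 RPKM in D1/2, against 628 RPKM in WT. All 10 aneuploid libraries were above WT of the same run, by 0.04 to 0.52 on the log2 scale, and none reached 1.5-fold.

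At the mRNA level the 2 run 1 strains had the largest CDC48 ratios, with 914 RPKM in D2 and 837 RPKM in D1/2, against 555 RPKM in WT. D2, with a log2 ratio of 0.70, was the only strain in which CDC48 mRNA passed 1.5-fold. In D13 the ratio was -0.12 and in D13 (KLY195) it was 0.02 ± 0.03 (SD, n = 2).

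UFD1 (YGR048W, chrVII:589826-590911, plus strand) and NPL4 encode the cofactor pair that brings ubiquitinated proteins to Cdc48. UFD1 sits on a chromosome that no strain duplicated. Its FP was 78.1 RPKM in D1/2/8, 94.0 and 88.3 RPKM in D1/2/8/11, 66.8 RPKM in D13, 68.6 and 79.0 RPKM in D13 (KLY195), and 50.9 and 60.1 RPKM in D1/8, against 59.0 RPKM in WT. In run 1 it was 45.5 RPKM in D2 and 45.4 RPKM in D1/2, against 35.3 RPKM in WT. Only D1/2/8/11 passed 1.5-fold, with a log2 ratio of 0.63 ± 0.07 in FP and 0.59 ± 0.06 in mRNA (SD, n = 2). The mRNA ratio was 0.50 to 0.59 in all 4 strains disomic for chromosome II and 0.11 to 0.42 in the other 3.

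NPL4 (YBR170C, chrII:576344-578086, minus strand) is the member that lies on chromosome II. In the strains disomic for that chromosome, FP was 86.8 RPKM in D2 and 79.1 RPKM in D1/2, against 39.1 RPKM in the run 1 WT, and 129 RPKM in D1/2/8 and 146 and 124 RPKM in D1/2/8/11, against 65.4 RPKM in the run 2 WT. In the strains with a single chromosome II it was 59.5 RPKM in D13, 68.4 and 66.2 RPKM in D13 (KLY195), and 54.9 and 53.0 RPKM in D1/8. The disomic strains and the others did not overlap in their ratios to WT, which were 0.92 to 1.16 in the disomic cultures and -0.30 to 0.07 in the others. Of all genes, 89.33% (D1/2/8/11) to 97.05% (D2) had a lower FP ratio than NPL4 in the disomic strains.

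Over all genes of chromosome II the median FP ratio lay between 0.85 and 0.96 in the 4 disomic strains. NPL4 had a ratio of 1.06 where the chromosome median was 0.87 (D2), 0.95 where it was 0.89 (D1/2), 0.98 where it was 0.85 (D1/2/8) and 1.04 ± 0.17 where it was 0.96 (D1/2/8/11; SD, n = 2). NPL4 mRNA ratios were higher, at 1.14 to 1.31. Ribosome density of NPL4 lay between -0.32 and -0.17 in all 7 strains. Of the 3 subunits of the complex, the gene with the extra copy was therefore the one that differed most from WT in the disomic strains.

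**Figure D1:**
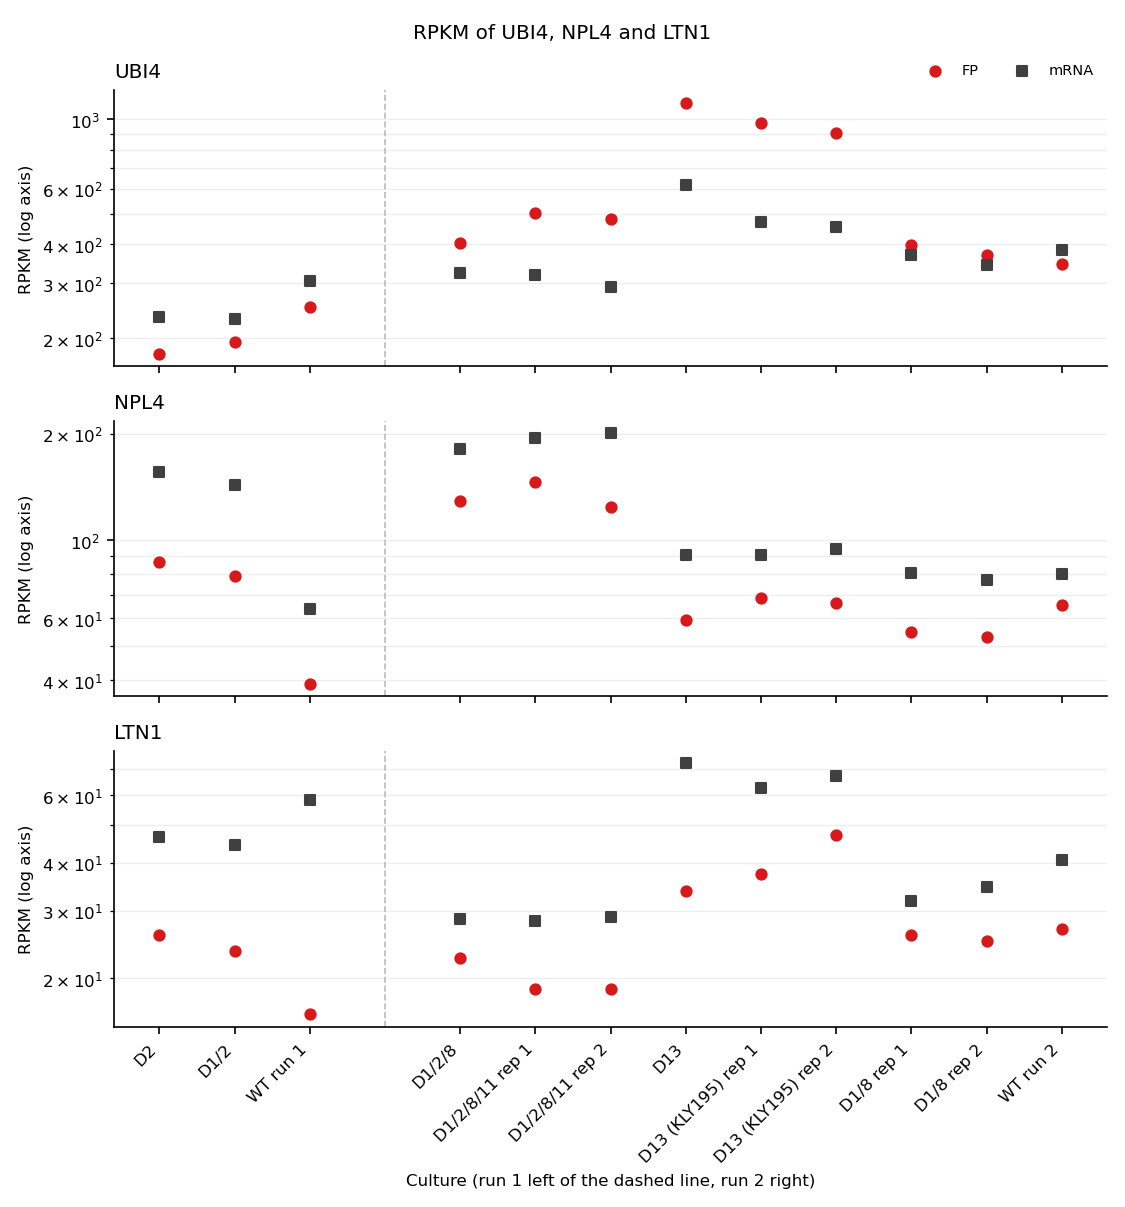
RPKM of UBI4, NPL4 and LTN1 (log axis) in each of the 12 cultures, with circles for FP and squares for mRNA and run 1 left of the dashed line. UBI4 FP was highest in the 3 D13 libraries (904 to 1129 RPKM), NPL4 was highest in the strains disomic for chromosome II, and LTN1 mRNA was highest in the D13 strains.

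The DNA upstream of the 10 genes was searched on both strands, within 300 bases of the start codon, for sequence motifs of known regulators. The proteasome-associated control element GGTGGCAAA, which is bound by Rpn4, the transcription factor of the proteasome genes, was present in 2 members, UBI4 and CDC48, and in 68 of 5619 genes in all (1.21%). Both sites are shown on the gene strand of sacCer3 with the motif in capitals. In UBI4 it reads as the reverse complement, 160 bases before the start codon, and in CDC48 it lies 141 bases before it.
UBI4, chrXII:65347-65379, minus strand: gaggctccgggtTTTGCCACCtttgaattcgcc
CDC48, chrIV:238785-238817, minus strand: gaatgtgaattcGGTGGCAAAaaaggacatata
The stress response element AGGGG, bound by Msn2 and Msn4, was found in 7 members (UBI4, CDC48, SAN1, UBR1, RSP5, HRD1 and SSM4), and in 22.3% of all 5619 genes. The heat shock element of Hsf1, searched as alternating GAA and TTC units (0.854% of genes), and the core CAGNGTG of the unfolded protein response element (5.71% of genes) were found in none of the 10. A match of letters is not evidence of binding. RPN4 FP was higher in D1/2/8/11 than in D1/8 (log2 difference 0.53 ± 0.11, adjusted p = 0.00824 by limma), and its mRNA differed by 0.22. In that FP test the median of all genes was 0.30 and 39.4% of genes were higher. The FP difference of RPN4 between D13 (KLY195) and D1/8 was 0.29 (adjusted p = 0.0680), where the median of all genes was 0.23 and 33.2% were higher. A link between RPN4 and the levels of UBI4 and CDC48 was not tested.

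SAN1 (YDR143C, chrIV:742042-743874, minus strand) encodes the ligase that marks misfolded proteins in the nucleus. Its FP was 35.9 RPKM in D1/2/8, 40.2 and 38.2 RPKM in D1/2/8/11, 27.0 RPKM in D13, 25.6 and 34.3 RPKM in D13 (KLY195), and 32.2 and 31.6 RPKM in D1/8, against 25.9 RPKM in WT. SAN1 mRNA went the other way, with 39.0 RPKM in D1/2/8, 46.3 and 43.8 RPKM in D1/2/8/11, 32.4 RPKM in D13, and 33.4 and 32.1 RPKM in D13 (KLY195), against 50.3 RPKM in WT. In these 4 strains SAN1 mRNA was below WT in every library while FP was above WT in all but the library labelled D13 (KLY195) replicate 1. The density ratio was 0.69 to 0.83.

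UBR1 (YGR184C, chrVII:859901-865753, minus strand) encodes the ligase of the N-degron pathway, which also marks misfolded cytosolic proteins. UBR1 FP stayed near WT, with ratios of -0.36 to 0.25 over the 7 strains. UBR1 mRNA was lower than WT in D1/2/8 (-0.43), D1/2/8/11 (-0.35 ± 0.01), D13 (-0.48) and D13 (KLY195) (-0.64 ± 0.08; SD, n = 2), and within 0.13 of WT in D2, D1/2 and D1/8. Only D13 (KLY195) passed 1.5-fold. The density ratio was positive in all 7 strains, at 0.05 to 0.37.

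RSP5 (YER125W, chrV:410189-412618, plus strand) encodes an essential ligase that ubiquitinates plasma membrane proteins for endocytosis and cytosolic proteins after heat stress. FP was 61.7 RPKM in D1/2/8, 72.4 and 87.9 RPKM in D1/2/8/11, 80.9 RPKM in D13, 63.8 and 92.6 RPKM in D13 (KLY195), and 175 and 174 RPKM in D1/8, against 144 RPKM in WT. RSP5 mRNA was 112 RPKM in D1/2/8, 119.9 and 115 RPKM in D1/2/8/11, 107 RPKM in D13, 110.0 and 113 RPKM in D13 (KLY195), and 234 and 245 RPKM in D1/8, against 202 RPKM in WT. In both fractions the 6 libraries of the first 4 strains lay below WT and D1/8, without overlap. Of all genes, 13.24% (D1/2/8) to 18.51% (D1/2/8/11) had a lower FP ratio than RSP5 in these strains. Log2 ratios to WT were -1.22 to -0.83 in FP and -0.92 to -0.78 in mRNA, so that the density ratio ranged from -0.36 to 0.09.

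LTN1 (YMR247C, RKR1 in RefSeq, chrXIII:763351-768039, minus strand) encodes the ligase of ribosome quality control, which marks incomplete chains on stalled ribosomes. It lies on chromosome XIII, which both D13 strains carry in an extra copy. LTN1 mRNA was 72.5 RPKM in D13 and 62.4 and 67.4 RPKM in D13 (KLY195), against 40.6 RPKM in WT. FP was 33.7 RPKM in D13 and 37.3 and 47.2 RPKM in D13 (KLY195), against 26.9 RPKM in WT. The FP ratios were 0.33 and 0.64 ± 0.24 (SD, n = 2), below the chromosome XIII medians of 0.90 and 0.94. In D2 and D1/2, LTN1 had FP ratios of 0.59 and 0.48 and mRNA ratios of -0.34 and -0.41. D2 and D1/2 had 25.9 and 23.6 RPKM in FP, against 16.1 RPKM in the run 1 WT, a level well below the 26.9 RPKM of the run 2 WT.

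**Figure D2:**
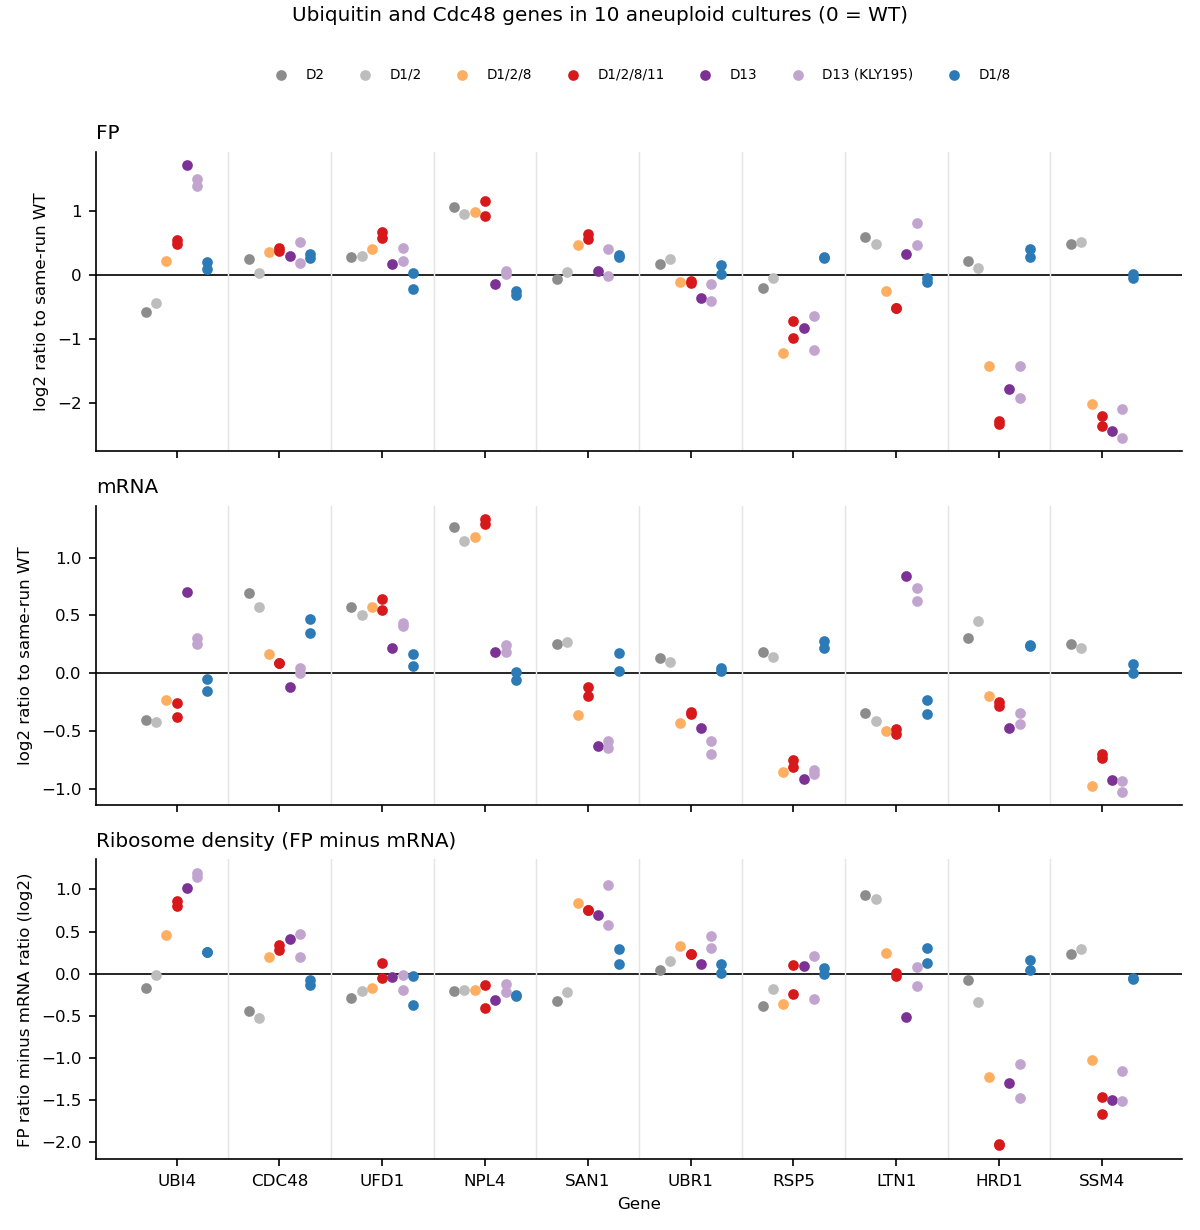
Log2 ratio of each member to WT of the same run, in FP, mRNA and ribosome density, with 1 point per culture coloured by strain and 0 for WT. HRD1 and SSM4 had FP ratios of -2.53 to -1.42 in the cultures of D1/2/8/11, D1/2/8 and the D13 strains, whereas their mRNA ratios there were -1.03 to -0.20.

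HRD1 (YOL013C, chrXV:301380-303035, minus strand) and SSM4 (YIL030C, chrIX:296050-300009, minus strand) encode the ER membrane ligases. Hrd1 serves proteins with lesions in the ER lumen or in their membrane spans, and Doa10 serves those with cytosolic lesions, at the ER and at the inner nuclear membrane. Segments were counted where windows of 19 residues reached a mean hydropathy of 1.6 on the Kyte-Doolittle scale. By that measure the reading frames held 5 in HRD1 and 11 in SSM4, against 2 in UBR1, 1 in LTN1 and 0 in the other 6 members. The 57 bases that encode the most hydrophobic window of each are shown beside that of RSP5, a soluble ligase, on the gene strand of sacCer3. Capitals mark codons with T in the second position, which encode hydrophobic residues.
HRD1, chrXV:302952-303008, minus strand: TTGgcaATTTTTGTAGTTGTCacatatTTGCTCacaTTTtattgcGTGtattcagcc
SSM4, chrIX:296308-296364, minus strand: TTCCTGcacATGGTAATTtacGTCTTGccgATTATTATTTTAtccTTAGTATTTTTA
RSP5, chrV:411839-411895, plus strand: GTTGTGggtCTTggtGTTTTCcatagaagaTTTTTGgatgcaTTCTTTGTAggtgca
The mean hydropathy of these windows was 2.02 in HRD1, 2.64 in SSM4 and 1.17 in RSP5, and 15 of 19 codons in the SSM4 window had T in the second position, against 10 in the RSP5 window. HRD1 had 10 such codons as well.

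HRD1 was the least abundant member in FP in every library except D1/8 replicate 1, where LTN1 was slightly lower. It had 7.48 RPKM in D1/2/8, 4.01 and 4.16 RPKM in D1/2/8/11, 5.88 RPKM in D13, 5.31 and 7.51 RPKM in D13 (KLY195), and 26.5 and 24.4 RPKM in D1/8, against 20.1 RPKM in the run 2 WT. In run 1 it was 17.7 RPKM in D2 and 16.3 RPKM in D1/2, against 14.3 RPKM in WT. The 6 libraries of D1/2/8/11, D1/2/8 and the D13 strains lay below all others, with no overlap. Of all genes, 3.571% (D1/2/8/11) to 10.33% (D1/2/8) had a lower FP ratio than HRD1 in these strains.

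SSM4 FP divided the libraries in the same way. It was 13.1 RPKM in D1/2/8, 10.3 and 11.5 RPKM in D1/2/8/11, 9.79 RPKM in D13, 9.09 and 12.4 RPKM in D13 (KLY195), and 51.2 and 53.5 RPKM in D1/8, against 52.7 RPKM in WT. In run 1 it was 62.4 RPKM in D2 and 62.8 RPKM in D1/2, against 42.1 RPKM in WT. SSM4 was thus higher than WT in the 2 run 1 strains and close to WT in D1/8. In the 4 strains where SSM4 was low, 1.591% (D13) to 3.882% (D1/2/8) of all genes had a lower FP ratio.

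The mRNA of the 2 genes fell short of these differences. HRD1 mRNA was 30.2 RPKM in D1/2/8, 28.5 and 29.1 RPKM in D1/2/8/11, 25.0 RPKM in D13, 25.5 and 27.3 RPKM in D13 (KLY195), and 40.9 and 41.0 RPKM in D1/8, against 34.7 RPKM in WT. SSM4 mRNA was 37.4 RPKM in D1/2/8, 45.5 and 44.3 RPKM in D1/2/8/11, 38.9 RPKM in D13, 36.3 and 38.7 RPKM in D13 (KLY195), and 74.1 and 78.3 RPKM in D1/8, against 73.9 RPKM in WT. Density ratios to WT were -1.23 for HRD1 and -1.03 for SSM4 in D1/2/8, -2.03 ± 0.02 and -1.56 ± 0.14 in D1/2/8/11 (SD, n = 2), -1.298 and -1.503 in D13, and -1.27 ± 0.28 and -1.33 ± 0.25 in D13 (KLY195) (SD, n = 2). Without the library labelled D13 (KLY195) replicate 1, the FP ratios of that strain were -1.42 for HRD1 and -2.08 for SSM4.

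**Figure D3:**
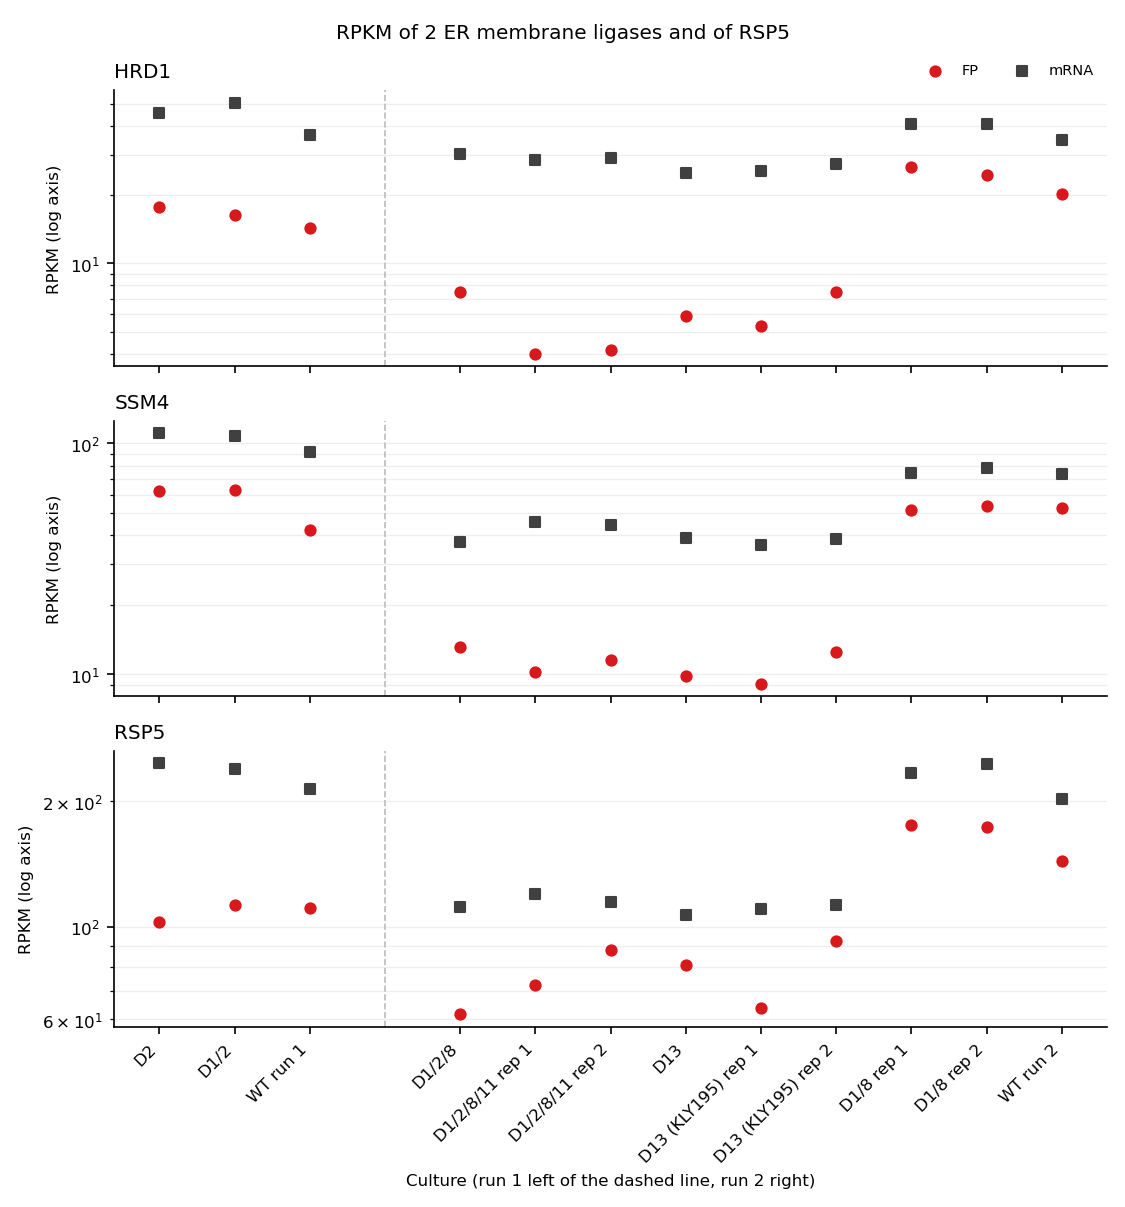
RPKM of HRD1, SSM4 and RSP5 (log axis) in each culture, with circles for FP and squares for mRNA and run 1 left of the dashed line. In D1/2/8/11, D1/2/8 and the D13 strains, FP of HRD1 (4.01 to 7.51 RPKM) and SSM4 (9.09 to 13.1 RPKM) lay far below their mRNA, while RSP5 was lower in both fractions.

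The ER membrane ligases were then set against the soluble ligases within each culture, by subtracting the mean log2 ratio of SAN1, UBR1 and RSP5 from that of HRD1 and SSM4. LTN1 was left out because its chromosome is duplicated in the D13 strains. In FP the difference was -1.43 in D1/2/8, -2.17 ± 0.04 in D1/2/8/11 (SD, n = 2), -1.72 in D13, -1.66 ± 0.05 in D13 (KLY195) (SD, n = 2) and -0.06 ± 0.04 in D1/8 (SD, n = 2), and it was 0.38 in D2 and 0.22 in D1/2. In mRNA it lay between -0.06 and 0.17 in all 7 strains. The ER membrane ligases were lower than the soluble ligases by 1.5-fold or more in 4 of 7 strains in FP and in 0 of 7 in mRNA.

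Both groups of ligases had less mRNA than WT in those 4 strains, with means of -0.70 to -0.49 for HRD1 and SSM4 and of -0.71 to -0.43 for the soluble ligases. In FP the means were -2.29 to -1.71 for HRD1 and SSM4, against -0.38 to -0.12 for the soluble ligases. The soluble mean in FP joins unlike genes, with strain ratios of 0.06 to 0.60 for SAN1, -0.36 to -0.10 for UBR1 and -1.22 to -0.83 for RSP5. The 4 strains were all sequenced in run 2, where D1/8 did not share the difference. D2 and D1/2 were sequenced in run 1 only, so for those 2 strains karyotype and run cannot be told apart.

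**Figure D4:**
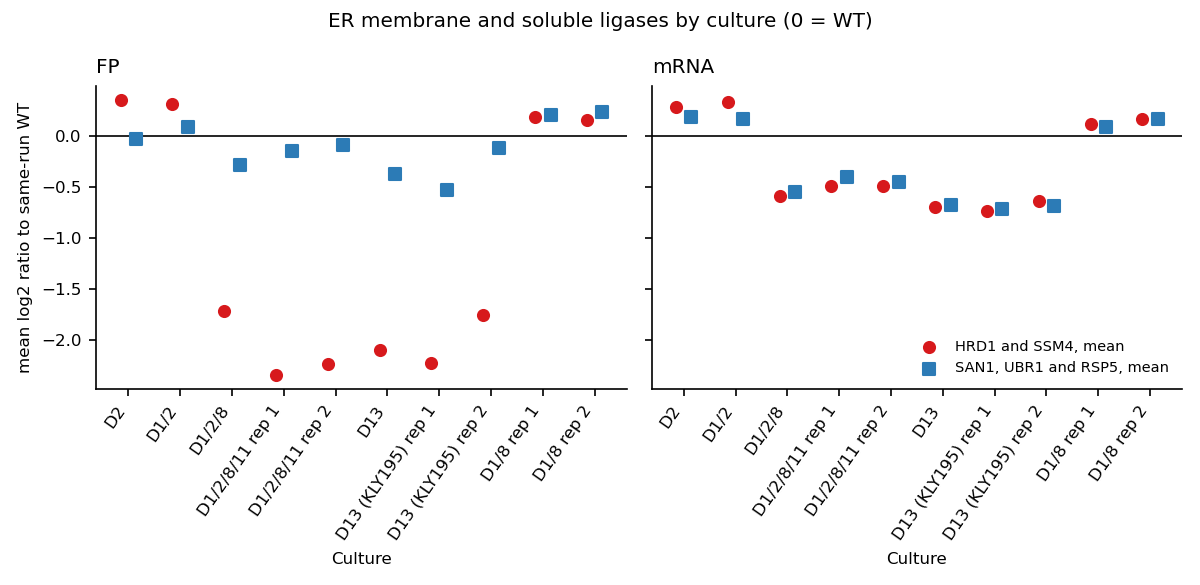
Mean log2 ratio to WT of the same run for HRD1 and SSM4 (circles) and for SAN1, UBR1 and RSP5 (squares) in each aneuploid culture, in FP and mRNA. The 2 means lay within 0.17 of each other in mRNA in every strain, and apart by 1.43 to 2.17 in FP in D1/2/8/11, D1/2/8 and the D13 strains.

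Counted at 1.5-fold from WT on strain means, 3 of 10 members were lower in FP in each of D1/2/8, D1/2/8/11, D13 and D13 (KLY195), namely RSP5, HRD1 and SSM4. Of all genes, 22.7% were lower by as much in D1/2/8, 22.7% also in D1/2/8/11, 21.3% in D13 itself and 21.4% in D13 (KLY195). No member was lower in D2, D1/2 or D1/8, where 14.7%, 14.4% and 6.45% of genes were. On the higher side there were 2 members in D2 (NPL4 and LTN1, background 12.8%), 1 in D1/2 (NPL4, 14.0%), 1 in D1/2/8 (NPL4, 16.3%), 3 in D1/2/8/11 (UFD1, NPL4 and SAN1, 24.7%), 1 in D13 (UBI4, 17.1%), 2 in D13 (KLY195) (UBI4 and LTN1, 14.8%) and 0 in D1/8 (10.1%).

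In mRNA, RSP5 and SSM4 were lower in the same 4 strains, joined by SAN1 in both D13 strains and by UBR1 in D13 (KLY195). That made 2 of 10 members in D1/2/8 (background 18.4%) and 2 in D1/2/8/11 (16.2%). D13 had 3 (17.8%), and D13 (KLY195) had 4 (19.1%). There were 0 in D2 (10.0%), D1/2 (9.43%) and D1/8 (6.15%). Higher mRNA was seen for 2 members in D2 (CDC48 and NPL4, 13.2%), 1 in D1/2 (NPL4, 14.5%), 1 in D1/2/8 (NPL4, 17.1%), 2 in D1/2/8/11 (UFD1 and NPL4, 21.2%), 2 in D13 (UBI4 and LTN1, 16.8%), 1 in D13 (KLY195) (LTN1, 15.1%) and 0 in D1/8 (9.01%). CDC48 and UBR1 each passed 1.5-fold in a single strain, and only in mRNA.

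Strains with 2 cultures could be tested against each other. D1/2/8/11 and D13 (KLY195) were each compared with D1/8, which was sequenced in the same run, by limma on log2(RPKM + 0.5), with p-values adjusted over all genes fitted. The 2 comparisons share the D1/8 libraries. Each library was centred on its median over chromosomes that no strain duplicated, which moved the median difference of all genes by 0.22 in FP in both comparisons, by 0.21 and 0.20 in density and by -0.02 in mRNA. Differences are given after that shift, and those of low genes are understated by the added 0.5. Fits without centring still carry the study's own scaling to the euploid. The centred median of all genes was 0.30 in FP, 0.06 in mRNA and 0.16 in density for D1/2/8/11 against D1/8, and 0.23, 0.01 and 0.17 for D13 (KLY195) against D1/8.

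In FP, 7 of 10 members differed between D1/2/8/11 and D1/8, where 58.1% of 5036 genes did. HRD1 was lower, with a log2 difference of -2.28 ± 0.18 (SE, adjusted p = 0.000258), a 4.87-fold difference and the 79th lowest of all genes tested. SSM4 was 4.00-fold lower (SE 0.16 on the log2 scale, adjusted p = 0.000253), and RSP5 was lower, at -0.91 ± 0.18 (adjusted p = 0.00699). These were 3 lower members where 18.7% of genes were lower. The 4 higher members, where 39.4% of genes were higher, were NPL4 (1.53 ± 0.13), UFD1 (0.93 ± 0.13), UBI4 (0.57 ± 0.12) and SAN1 (0.51 ± 0.15). CDC48 (0.31 ± 0.14), UBR1 (0.02 ± 0.12) and LTN1 (-0.21 ± 0.14) did not pass. With only the 2 strains compared in the fit, CDC48 did pass (0.31 ± 0.08, adjusted p = 0.0118). Its difference was also 0.31 ± 0.08 without the library labelled D13 (KLY195) replicate 1. Without centring the calls of higher genes fell to 52.7% of all calls, against 67.8% with it, SAN1 lost its call (0.29, adjusted p = 0.170) and LTN1 became lower (-0.43, adjusted p = 0.0446).

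Several of these calls depended on single libraries. Without D1/2/8/11 replicate 1, 4 members passed, and UBI4 (adjusted p = 0.0618), RSP5 (0.0548) and SAN1 (0.141) did not. UBI4 also missed the threshold without D1/8 replicate 1 (0.0617) or replicate 2 (0.0964), and SAN1 did so whichever of the 4 libraries was left out (0.0686 to 0.141). HRD1, SSM4, NPL4 and UFD1 passed in all 13 settings tried.

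In mRNA, all 10 members passed in D1/2/8/11 against D1/8, as did 75.8% of 5470 genes. NPL4 (1.31 ± 0.05) and UFD1 (0.46 ± 0.06) were higher, where 41.5% of genes were. The 8 lower members, where 34.3% of genes were lower, ranged from RSP5 (-1.05 ± 0.05, adjusted p = 2.74e-08), SSM4 (-0.78 ± 0.06) and HRD1 (-0.52 ± 0.06) to LTN1 (-0.23 ± 0.06), with CDC48, SAN1, UBR1 and UBI4 between -0.39 and -0.24. UBI4 missed the threshold without D1/2/8/11 replicate 2 (adjusted p = 0.0579) and LTN1 without D1/8 replicate 2 (0.0503).

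The FP difference was compared with the mRNA difference by an interaction term over both kinds of library. Ribosome density differed for 7 of 10 members between D1/2/8/11 and D1/8, where 43.6% of 5035 genes differed. It was lower for HRD1 (-1.79 ± 0.19, adjusted p = 0.000196) and SSM4 (-1.25 ± 0.17, adjusted p = 0.000610), against 16.0% of genes, HRD1 being the 26th lowest gene of all. It was higher, as for 27.5% of genes, for UBI4 (0.78 ± 0.13), SAN1 (0.76 ± 0.18), CDC48 (0.62 ± 0.15), UFD1 (0.45 ± 0.15) and UBR1 (0.39 ± 0.13). The FP and mRNA libraries of a culture are described as from 1 lysate, which the interaction term does not use. That pairing is in doubt for D13 (KLY195) replicate 1, with TRP1 at 303 RPKM in mRNA and 0.759 RPKM in FP. With FP minus mRNA taken within each culture, 5 members passed, and UFD1 (adjusted p = 0.0872) and UBR1 (0.0533) did not. RSP5 had a difference of 0.11 ± 0.20 by the interaction term, so its FP and mRNA differences did not differ beyond their error.

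The 5 higher densities were less stable than the 2 lower ones. Without centring, calls of higher genes were 40.3% of all calls, against 63.2% with it, and 4 members passed (UBI4, SAN1, HRD1 and SSM4). Leaving out D1/2/8/11 replicate 1 or D1/8 replicate 1 left 3 members (UBI4, HRD1 and SSM4). Leaving out D1/2/8/11 replicate 2 or D1/8 replicate 2 left 4, the fourth being SAN1 or UFD1. UBI4, HRD1 and SSM4 passed in all 14 settings tried.

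D13 (KLY195), disomic for chromosome XIII, was set against the same D1/8 libraries. In FP, 7 of 10 members differed, where 53.8% of 5036 genes did. SSM4 (-2.03 ± 0.16, adjusted p = 0.000299), HRD1 (-1.71 ± 0.18, adjusted p = 0.000738) and RSP5 (-0.96 ± 0.18, adjusted p = 0.00650) were lower, where 20.7% of genes were lower. UBI4 (1.51 ± 0.12, adjusted p = 0.000335), LTN1 (0.92 ± 0.14), UFD1 (0.62 ± 0.13) and NPL4 (0.53 ± 0.13) were higher, where 33.2% of genes were. NPL4 is not duplicated in this strain, and it lost its call without centring (0.32, adjusted p = 0.0747) and without D1/8 replicate 1 (0.0889) or replicate 2 (0.109), as UFD1 did without D1/8 replicate 1 (0.0958). Without the library labelled D13 (KLY195) replicate 1, 8 members passed, CDC48 (0.42, adjusted p = 0.0103) being added, and the differences were -1.82 for SSM4, -1.49 for HRD1, -0.70 for RSP5 and 1.45 for UBI4. Without centring, calls of higher genes were 41.3% of all calls, against 61.6% with it.

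In mRNA, all 10 members passed, as did 77.1% of 5470 genes. LTN1 (0.94 ± 0.06), UBI4 (0.36 ± 0.06), UFD1 (0.29 ± 0.06) and NPL4 (0.22 ± 0.05) were higher, where 38.4% of genes were. RSP5 (-1.12 ± 0.05), SSM4 (-1.03 ± 0.06), SAN1 (-0.72 ± 0.07), UBR1 (-0.68 ± 0.06), HRD1 (-0.64 ± 0.06) and CDC48 (-0.40 ± 0.05) were lower, where 38.7% of genes were.

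Ribosome density differed for 6 members between D13 (KLY195) and D1/8, where 43.5% of 5035 genes differed. It was lower for HRD1 (-1.11 ± 0.19, adjusted p = 0.00162) and SSM4 (-1.03 ± 0.17, adjusted p = 0.00144), where 16.1% of genes were lower. It was higher, as for 27.4% of genes, for UBI4 (1.11 ± 0.13, adjusted p = 0.000258), SAN1 (0.80 ± 0.18), CDC48 (0.64 ± 0.15) and UBR1 (0.51 ± 0.13). Calls of higher genes were 62.9% of all calls, against 42.1% without centring, under which UBR1 missed the threshold (0.31, adjusted p = 0.0912). Without D1/8 replicate 2, 3 members passed (UBI4, HRD1 and SSM4). Without D1/8 replicate 1, CDC48 (adjusted p = 0.0757) and UBR1 (0.118) did not pass. Without the library labelled D13 (KLY195) replicate 1, 7 members passed, and the added member was RSP5 (0.37, adjusted p = 0.0472), with HRD1 at -0.93 and SSM4 at -0.87. The same 6 members passed with FP minus mRNA taken within each culture. That fit pairs the FP library labelled D13 (KLY195) replicate 1 with an mRNA library that it may not match.

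**Figure D5:**
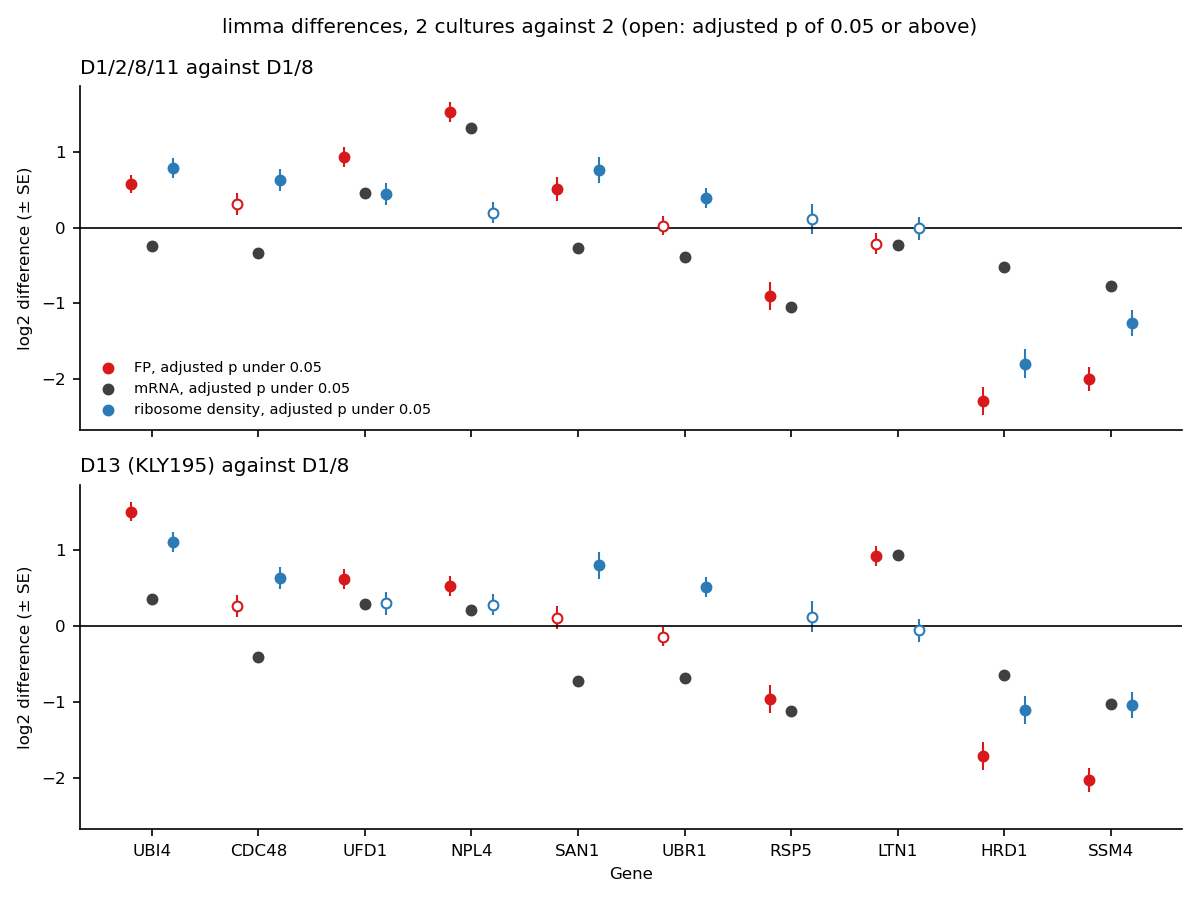
Log2 differences (± SE) of the 10 members in FP, mRNA and ribosome density, for D1/2/8/11 against D1/8 (top) and D13 (KLY195) against D1/8 (bottom), with open symbols for an adjusted p of 0.05 or above. HRD1 and SSM4 had FP differences of -2.28 to -1.71 over the 2 comparisons, with density differences of -1.79 to -1.03.

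The other genes of the pathway were taken from a list of 66, made up of Cdc48 cofactors, E1 and E2 enzymes, partners of ERAD, adaptors of Rsp5, other soluble ligases and deubiquitinases. The 10 ERAD partners comprise 8 proteins of the ER and nuclear membrane and 2 of the ER lumen, YOS9 and HTM1, which handle glycoproteins. Of the 10, 9 were lower in FP in D1/2/8/11 than in D1/8 and 1 was higher, where 18.7% of all genes were lower and 39.4% higher. The median difference was -1.35, against 0.30 over all genes. Of the 8 membrane partners alone, 7 were lower, with a median of -1.05, and both lumenal ones were lower. The higher partner was DER1, a subunit of the Hrd1 complex on chromosome II, and without centring it did not pass. HRD3, the partner that recruits substrates to Hrd1 and stabilizes it, had an FP difference of -2.32 ± 0.16 (adjusted p = 0.000211), the largest fall of the list, an mRNA difference of -0.83 and a density difference of -1.52. ASI3, of the ligase complex of the inner nuclear membrane, was lower in FP, at -1.86 ± 0.18, as was TRE2, a membrane adaptor of Rsp5, at -1.83 ± 0.15.

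All 15 membrane proteins of the list, ERAD partners included, had 10 lower and 2 higher in FP in this comparison, with a median of -0.75. The 2 higher were DER1 and BSD2, both on chromosome II. The 43 soluble list genes that could be tested had 23 higher and 1 lower, with a median of 0.49. The higher ones included SHP1, ECM21, UBP14 and UBX7 on chromosome II and UFD4, UBA1, DOA1 and ALY1 on chromosome XI. D1/2/8/11 carries both chromosomes in an extra copy and D1/8 does not, and the counts were not repeated without those genes. Of all genes, 18.7% were lower and 39.4% higher. Without centring the soluble counts were 12 higher and 2 lower, and the median was 0.28, against 0.09 over all genes. In that setting 1230 of all 5036 genes were higher and 1104 lower. The 3 largest rises of the list were SHP1 (1.84 ± 0.17) and UBX7 (1.34 ± 0.11), Cdc48 cofactors on chromosome II, and DOA1 (1.51 ± 0.16), a Cdc48 cofactor on chromosome XI, all on chromosomes duplicated in D1/2/8/11 and not in D1/8. RAD6, the E2 enzyme that works with Ubr1, was higher by 0.82 ± 0.14 in FP (adjusted p = 0.00312) and differed by 0.12 in mRNA (adjusted p = 0.0835).

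In D13 (KLY195) against D1/8, 6 of 10 ERAD partners were lower and 0 higher in FP, with a median of -0.92, against 0.23 over all genes, and 8 were lower without centring. Of the 4 partners that did not pass, USA1 (0.32 ± 0.12), ASI1 (-0.60 ± 0.26) and CUE1 (0.19 ± 0.15) lie on chromosome XIII, duplicated in this strain, and ASI2 (-0.25 ± 0.13) does not. HTM1 had the largest fall of the partners, at -2.74 ± 0.15. It lies on chromosome VIII, which D1/8 carries in an extra copy and D13 (KLY195) does not. HRD3 was lower, at -1.81 ± 0.16. Without the library labelled D13 (KLY195) replicate 1, 6 partners were lower and 1 was higher (USA1), the median was -0.89 and HRD3 was at -1.70 ± 0.17. The 15 membrane list genes had 6 lower and 2 higher in FP, with a median of -0.31. The 43 soluble ones had 3 lower and 14 higher, with a median of 0.29. Of all genes, 20.7% were lower and 33.2% higher, so the soluble genes called higher were near the share of all genes. Without that library the list counts were 6 lower and 3 higher for the membrane genes, and 2 lower and 19 higher for the soluble ones. Without centring they were 9 lower and 0 higher for the membrane genes, and 4 lower and 6 higher for the soluble ones. The soluble median was then 0.07, against 0.02 over all genes.

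In density, 9 of 10 ERAD partners were lower in both comparisons, with medians of -0.88 and -0.91. Of all genes, 16.0% and 16.1% were lower in density. In mRNA, 7 of 10 were lower and 1 higher in D1/2/8/11, where 34.3% of genes were lower and 41.5% higher, and the higher one was DER1, on the duplicated chromosome II. In D13 (KLY195), 3 were lower and 4 higher, where 38.7% of genes were lower and 38.4% higher. Of these 4, USA1, ASI1 and CUE1 lie on the duplicated chromosome XIII and ASI2 lies on chromosome XIV. The 3 lower ones included HTM1 (-1.27), on chromosome VIII, which D1/8 carries in an extra copy.

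The lower FP of HRD1 and SSM4 was shared by genes with many hydrophobic segments in general. Of 348 genes with at least 4 predicted segments, 280 were lower in FP in D1/2/8/11 than in D1/8 and 4 were higher, with a median of -1.41. The median was -0.09 for 1127 genes with 1 to 3 segments and 0.43 for 3496 genes with none. Within the class of at least 4 segments, 12.6% of genes were lower in FP than HRD1 and 21.8% were lower than SSM4. In density the median of the class was -0.95, and 1.72% of its genes lay below HRD1 and 23.3% below SSM4. In mRNA the median of the class was -0.45, and HRD1 and SSM4 had 46.3% and 32.2% of its genes below them.

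The class showed the same division of strains as the ER membrane ligases. D1/2/8 had a class median of -1.78 for the FP ratio to WT, D1/2/8/11 of -1.88, D13 of -1.52 and D13 (KLY195) of -1.61, but D1/8 was at -0.06, D2 at 0.03 and D1/2 at -0.01. In D13 (KLY195) against D1/8, 28.7% of the class lay below HRD1 and 15.8% below SSM4 in FP. Without the library labelled D13 (KLY195) replicate 1 these shares were 36.5% and 21.8%, and the class median to WT was -1.67. The FP differences of HRD1 and SSM4 were therefore within the range of multi-segment genes, and in D1/2/8/11 the density of HRD1 was near the lower end of that range. What part this shared difference has in the values of HRD1 and SSM4 was not tested.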

How the data were processed

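Footprint (FP) and total mRNA libraries of a culture are described as from the same lysate, which is in doubt for D13 (KLY195) replicate 1. The authors made them with a TruSeq ribosome profiling kit, trimmed them with Cutadapt and aligned them with Bowtie to sacCer3 (versions not given in the sources used here). The authors deposited RPKM per ORF, 1 table per library, in which ORFs under 4 reads are at 0 or blank. Of the ORFs, 6033 nuclear ones were kept. Reads behind a value were recovered from the step size of its library (92.7% to 99.2% of values came out whole). The 10 members and all gene lists were chosen with earlier results of these data known. Ratios to WT used genes above 0 in both libraries, with no pseudocount, and were shifted to a median of 0 over each strain's nonduplicated chromosomes. The study's methods describe such a scaling, and the deposited values already carried it. limma 3.58.1 (R 4.3.3, trend, two-sided, Benjamini-Hochberg, threshold 0.05) was fitted to log2(RPKM + 0.5) of all run 2 libraries of a fraction, with genes at a mean RPKM of at least 1, and was checked on simulated data. Only the 3 strains with 2 cultures inform its spread, and p-values measure the spread between cultures of 1 isolate. In FP and density that spread includes the library labelled D13 (KLY195) replicate 1, in both comparisons. Whether that library is of the same isolate as replicate 2 is in doubt. Named genes were the 10 members, the 3 largest rises and falls of the list in FP in D1/2/8/11 against D1/8, HRD3, RAD6, RPN4, TRP1 and LEU2. DER1, YOS9, HTM1, USA1, ASI1, ASI2, CUE1, BSD2, ECM21, UBP14, UFD4, UBA1 and ALY1 were named after their values were seen. Sequences came from the RefSeq genome R64 (sacCer3), matched by ORF name, and all 10 members matched.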

Additional observations from a re-analysis of the deposited data

Results flagged for a closer look

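For 7 members the FP difference between D1/2/8/11 and D1/8 was not the mRNA difference, by the interaction test of limma. The same was true of 43.6% of 5035 genes. FP minus mRNA on the log2 scale was 0.7849 for UBI4, 0.6242 for CDC48, 0.4454 for UFD1, 0.7558 for SAN1 and 0.3860 for UBR1, and it was -1.7924 for HRD1 and -1.2518 for SSM4. Without centring, CDC48 (adjusted p = 0.0557 by limma), UFD1 (0.226) and UBR1 (0.329) missed the threshold. With FP minus mRNA taken within each culture, UFD1 (adjusted p = 0.0872 by limma) and UBR1 (0.0533) missed the threshold. That fit takes both libraries of a culture as 1 lysate, which is in doubt for D13 (KLY195) replicate 1. Between D13 (KLY195) and D1/8 the FP and mRNA differences were unlike for 6 members, and for 43.5% of 5035 genes. FP minus mRNA was 1.1131 for UBI4, 0.6390 for CDC48, 0.8036 for SAN1, 0.5118 for UBR1, -1.1058 for HRD1 and -1.0337 for SSM4. Without centring UBR1 missed the threshold there (adjusted p = 0.0912 by limma). The direction was shared by both comparisons for each of the 6 genes in both, which use the same D1/8 libraries. No group had the 4 samples that a test for outlying samples needs.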

How the results depend on the processing

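Calls for HRD1 and SSM4 passed in every setting tried in all 6 tests. The number of members that passed ranged, over leaving out each replicate in turn, from 4 to 6 (FP), 9 to 10 (mRNA) and 3 to 4 (density) in D1/2/8/11 against D1/8, and from 5 to 8, 10 to 10 and 3 to 7 in D13 (KLY195) against D1/8. A comparison left with 1 culture in a strain assumes that it varies like the others. Without centring, 4 members passed in density in D1/2/8/11 against D1/8. Counts of members 1.5-fold from WT, summed over strains, were 22 in FP (20 to 22 with a replicate left out) and 20 in mRNA (19 to 20), and a 1.3-fold threshold gave 36 in mRNA. The ER membrane ligases stayed lower in 4 strains in FP and in 0 in mRNA.

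The sign turned only for differences that missed the threshold in the fit as reported. Leaving out single cultures gave ranges of -0.0365 to 0.0830 (UBR1 FP), -0.0276 to 0.2521 (RSP5 density) and -0.0993 to 0.0746 (LTN1 density) in D1/2/8/11, and of -0.0868 to 0.3090 (SAN1 FP), -0.1216 to 0.3692 (RSP5 density) and -0.1623 to 0.0570 (LTN1 density) in D13 (KLY195), each against D1/8. Without centring the signs turned for UBR1 FP (-0.1936), NPL4 density (-0.0148) and RSP5 density (-0.0962) in D1/2/8/11, and SAN1 FP (-0.1049) and RSP5 density (-0.0754) in D13 (KLY195), each against D1/8. UBR1 FP in D1/2/8/11 was also -0.0104 at a mean RPKM of at least 10, and LTN1 density was 0.0423 with no filter on low values. RSP5 density passed the threshold without D13 (KLY195) replicate 1. The cause was not tested.

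Replicate numbers were not taken to pair the cultures. Same-numbered deviations correlated at -0.07 (FP) and -0.03 (mRNA) between D1/2/8/11 and D1/8, at 0.05 and 0.01 between D13 (KLY195) and D1/8, and at 0.12 and 0.21 between D1/2/8/11 and D13 (KLY195). With a replicate block the counts were 7, 10 and 5 (UFD1 and UBR1 missing the threshold in density) and 7, 10 and 6. With both WT libraries averaged, 115 of 154 ratios to WT moved by more than the replicate SD. A setting without D13 (KLY195) replicate 1 in D1/2/8/11 against D1/8, chosen after seeing the data, gave 8 members in FP and 7 in density. The list counts and segment classes without that library were added in the same way. Run 1 depth and 2 cultures at most per strain limit the precision.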
